A study of Mus musculus with 14 samples.

Results

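The genes described here are 10 members of the cadherin-catenin adhesion system, chosen by name from the 35275 genes of the expression table: the catenins Ctnnb1, Jup, Ctnna1 and Ctnnd1 and the cadherins Cdh1, Cdh2, Cdh3, Cdh6, Cdh11 and Cdh13. They were followed by RNA sequencing in 14 samples of 5 related mouse ovarian cancer cell lines, all of C57Bl6 origin. KMF is the parental line, derived from ID8 ovarian cells that were passaged in mice. FAK KO is a KMF clone, KT13, in which Ptk2, the gene of focal adhesion kinase (FAK), was disrupted by CRISPR editing of exon 4. The other 3 lines were all made in KT13 and so lack endogenous FAK: FAK-WT re-expresses GFP-tagged wildtype FAK from a lentivirus, FAK-R454 re-expresses a GFP-tagged, catalytically inactive FAK, and β-catenin ΔGSK expresses an activated β-catenin that lacks the phosphorylation sites of the kinase GSK3β. All cells were grown for 5 days without anchorage, as tumorspheres, in serum-free medium. FAK-R454 had 2 samples and each of the other 4 lines had 3. FAK KO is 1 clone, so the loss of FAK and other features of that clone cannot be told apart, and 4 of the 5 main comparisons use the same FAK KO samples.

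Classical cadherins are transmembrane proteins that bind their like on the neighbouring cell. Inside the cell, their tail binds p120-catenin (Ctnnd1), which keeps the cadherin at the membrane, and either β-catenin (Ctnnb1) or plakoglobin (Jup), which in turn bind α-catenin (Ctnna1) and through it the actin cytoskeleton. β-Catenin that is not held at a junction is phosphorylated by casein kinase 1 and then by GSK3β on a short stretch near its N-terminus, and is thereby marked for degradation. When it escapes this step it enters the nucleus and activates Wnt target genes. Plakoglobin is its closest relative and is also a component of desmosomes. E-cadherin (Cdh1) and P-cadherin (Cdh3) are typical of epithelia. N-cadherin (Cdh2) is typical of mesenchymal and neural cells and is also the main cadherin of ovarian surface epithelium and mesothelium.

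The coding stretch that holds the sites the ΔGSK construct lacks is shown, with its counterpart in plakoglobin for comparison. Both were read from the GENCODE M21 transcripts of the GRCm38 (mm10) genome. The Ctnnb1 stretch spans codons 31 to 47 and lies in exon 3 of the principal transcript, at chr9:120950599-120950649 on the plus strand. The Jup stretch is the best ungapped match to it in the coding sequence of the principal Jup transcript, codons 22 to 38, in exon 2 at chr11:100386267-100386317 on the minus strand. Capitals mark codons 33, 37 and 41, which GSK3β phosphorylates in β-catenin, and codon 45, the priming codon of casein kinase 1, and in Jup the codons at the same places (24, 28, 32 and 36).
Ctnnb1: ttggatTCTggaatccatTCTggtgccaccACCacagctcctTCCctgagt
Jup: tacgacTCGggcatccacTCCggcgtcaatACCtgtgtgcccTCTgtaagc
All 4 marked codons encode serine or threonine in both genes, and 30 of the 51 bases were the same. The deposited values are sums over each gene, so transcripts of the ΔGSK construct and of the endogenous gene were not told apart. The stretch printed here is that of the mouse gene. The species of the construct's cDNA is not given in the sources used here, so how much of it is counted in the Ctnnb1 values of that line is not known.

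Samples held between 25390558 and 35289859 fragments on genes (median 28720224), and no pair of samples of 1 line agreed within counting noise. In 2 lines 1 sample stood apart most clearly, by the squared difference of counts over its counting variance, averaged over genes (about 1 for counting noise alone). KMF replicates 1 and 2 gave 4.59 against each other but 23.8 and 29.1 against replicate 3, and FAK-WT replicates 1 and 2 gave 3.15 but 42.5 and 30.5 against replicate 3. Without one or the other, the single limma call of a tested member to change in the 5 main comparisons was that of Jup in FAK KO over KMF. Less clearly, β-catenin ΔGSK replicates 2 and 3 gave 8.75 against each other but 18.1 and 30.4 against replicate 1. FAK KO replicates 2 and 3 gave 8.17 against each other and 22.2 and 11.4 against replicate 1. Levels are given as FPKM, that is, fragments scaled both to the length of the gene and to the size of the library. Fold changes are differences of log2(FPKM + 0.1) between lines, tested with limma among genes above 1 FPKM in at least 1 of the 2 lines, and a gene was called at a Benjamini-Hochberg adjusted p under 0.05. The p-values measure the spread between the samples of a line, which may be technical. The targeted gene, Ptk2, was at 24.3 FPKM in KMF and 19.0 in FAK KO (log2 fold change -0.36, limma adjusted p = 0.00329), and the deposited sums do not separate edited, endogenous and construct transcripts. FAK-WT had 43.4, FAK-R454 62.4 and β-catenin ΔGSK 15.5. The keratin genes Krt8, Krt18 and Krt19 and the ovarian surface and mesothelial genes Wt1 and Msln were above 40 FPKM in all samples, whereas Epcam and Krt7 stayed under 1. Krt8 averaged 317 FPKM in FAK KO and 569 in FAK-WT, Krt18 averaged 218 and 377 in the same lines, and Wt1 averaged 97.8 in FAK KO and 227 in β-catenin ΔGSK. Of the other mesothelial markers, Upk3b ran from 3.27 to 32.0 FPKM, with a mean of 31.6 in FAK-R454 against 4.03 in FAK KO, and Lrrn4 from 0.0964 to 1.16. Of 5 leukocyte markers, 4 were under 1 FPKM in every sample (Ptprc had reads in 1 sample and Cd3e had none), and Cd68 ran from 1.05 to 12.3, with means of 8.62 in FAK-WT and 2.99 in FAK KO. Of 4 endothelial markers, 2 were under 1 FPKM in every sample (Kdr had reads in 1), and Tek averaged 28.7 in KMF, 17.4 in FAK KO and 6.75 in β-catenin ΔGSK. Of 5 fibroblast markers, 2 were under 1 FPKM in all samples, Lum among them, and the sum of the 5 was 41.8 to 49.8 FPKM in KMF and 30.8 to 45.1 in β-catenin ΔGSK but 90.0 to 127 in FAK KO, 123 to 145 in FAK-WT and 122 to 132 in FAK-R454. Dcn made up most of that sum, at a mean of 33.1 in KMF and 99.0 in FAK KO, while Pdgfra went the other way, from 9.06 to 3.03, as did Col1a1, from 2.46 to 1.33. The part of these markers in the results was not tested.

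Of the 10 genes, 5 passed 1 FPKM in at least 1 line: the 4 catenins and Cdh2. The remaining 5 cadherins stayed under it in every sample. On the FPKM scale 3 of the catenins stood highest, followed by Cdh2 and then by Ctnnd1. Ctnnb1, Jup and Ctnna1 ranged from 96.7 to 223 FPKM over the 14 samples, Cdh2 from 14.2 to 27.1, and Ctnnd1 from 5.55 to 7.13. Cdh2 was therefore the one classical cadherin of the 10 with a level above 1 FPKM in these tumorspheres.

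Ctnnb1 (ENSMUSG00000006932, chr9:120929216-120960507, plus strand) encodes β-catenin. It stood at 197, 195 and 207 FPKM in the KMF samples and at 148, 140 and 146 in the FAK KO samples. In FAK-WT it was at 127, 129 and 130, and in FAK-R454 at 139 and 133. In β-catenin ΔGSK it was at 207, 212 and 223. The KMF and β-catenin ΔGSK samples were high, the samples of the other 3 lines were low, and the 2 sets did not overlap.

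The difference in Ctnnb1 between FAK KO and KMF was -0.47 ± 0.06 (log2, SE; limma adjusted p = 0.00035), and it was called under each alternative setting tried. FAK-WT did not return to the KMF level. Its Ctnnb1 was lower than in FAK KO by a small amount (-0.17 ± 0.06, limma adjusted p = 0.0439), a call that was lost when FAK KO replicate 1 or 3, or FAK-WT replicate 1 or 2, was left out (limma adjusted p = 0.0845 to 0.153) and under 6 other settings. FAK-R454 did not differ from FAK KO beyond the spread (-0.09, 95% interval -0.23 to 0.05), nor FAK-WT from FAK-R454 (-0.08, 95% interval -0.20 to 0.03). β-Catenin ΔGSK was higher than FAK KO by 0.57 ± 0.06 (limma adjusted p = 6.84e-05), again under each setting tried. Its level lay close to that of KMF, with a difference of 0.10 and a 95% interval of -0.05 to 0.25 (limma adjusted p = 0.228). In order of level the lines were β-catenin ΔGSK, KMF, FAK KO, FAK-R454 and FAK-WT, and the single gap between neighbours that passed the test was the one from KMF to FAK KO. The gene overlaps Ulk4 on the opposite strand, which had 1.10 to 1.73 FPKM, and whether the counting used strand is not given in the sources used here.

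**Figure D1:**
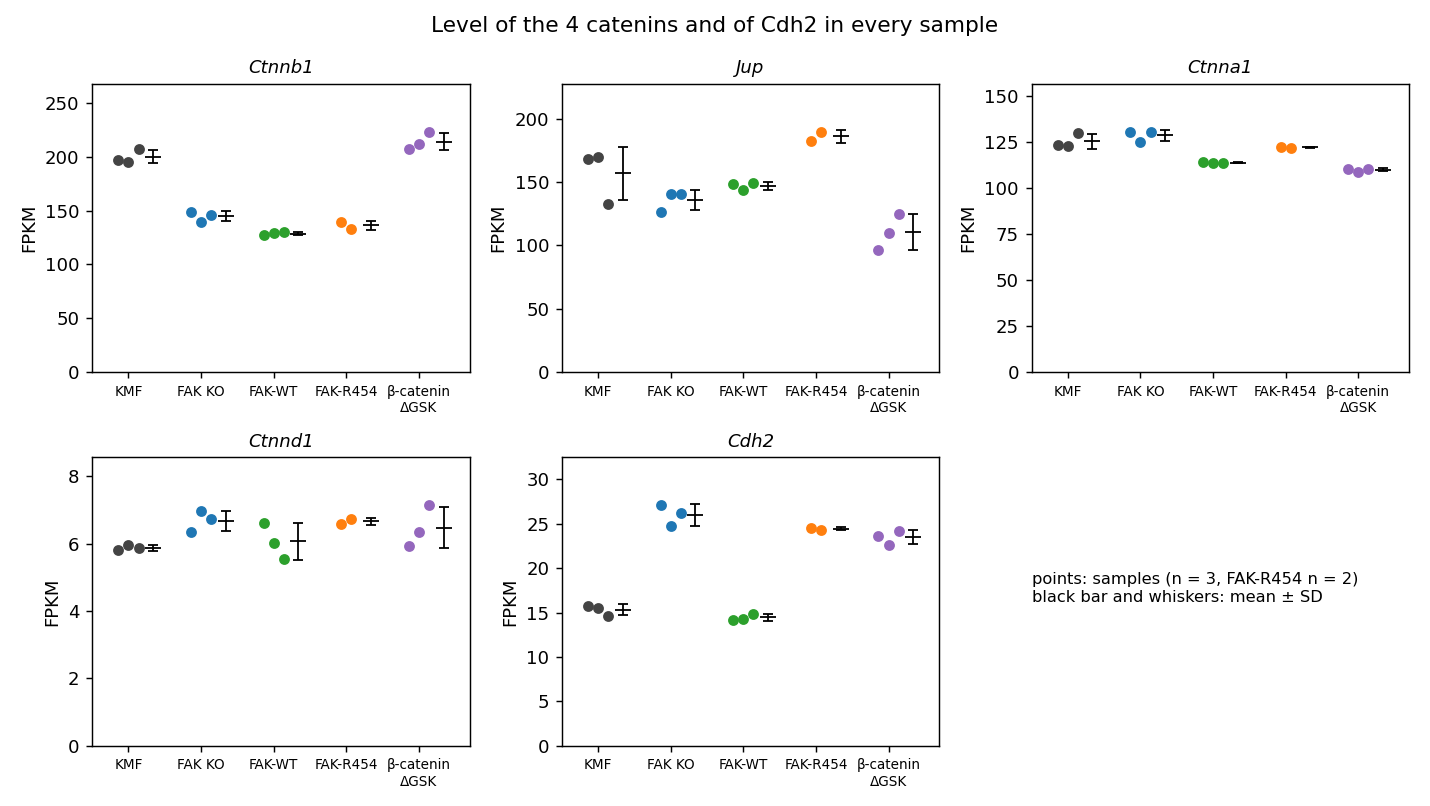
Level (FPKM, linear axis from 0) of Ctnnb1, Jup, Ctnna1, Ctnnd1 and Cdh2 in each sample of the 5 lines, with the mean and SD of each line in black. Ctnnb1 sits at 195 FPKM or above in KMF and β-catenin ΔGSK and at 148 or below in the other lines, while Cdh2 sits at 14.2 to 15.8 in KMF and FAK-WT and at 22.7 or above in the other 3.

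Jup (ENSMUSG00000001552, chr11:100368958-100397763, minus strand) encodes plakoglobin, also called γ-catenin. It stood at 169, 170 and 133 FPKM in KMF and at 126, 141 and 140 in FAK KO, and the 2 lines overlapped through the third KMF sample, the one that stood apart in its line. FAK-WT samples were at 149, 143 and 149. FAK-R454 samples were at 182 and 190, above all other samples. β-Catenin ΔGSK samples were at 96.7, 109 and 125, below all other samples.

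Jup was higher in FAK-R454 than in FAK KO by 0.46 ± 0.07 (limma adjusted p = 0.00395) and higher than in FAK-WT by the test of FAK-WT over FAK-R454 (-0.34 ± 0.05, limma adjusted p = 0.0183). Both calls rest on a line with 2 samples. Without FAK-R454 replicate 2 the first had a limma adjusted p of 0.0615, and without replicate 1 or 2 the second had 0.166 or 0.213, where the lone FAK-R454 sample is assumed to vary like the other line. The second call was also lost without FAK-WT replicate 1 (limma adjusted p = 0.0580) or replicate 2 (0.0977), and in 1 fit of all 5 lines (0.0799). FAK-WT itself differed little from FAK KO in Jup (0.12, 95% interval -0.03 to 0.27). Jup was lower in β-catenin ΔGSK than in FAK KO (-0.31 ± 0.10, limma adjusted p = 0.0234), the opposite direction to Ctnnb1 in that comparison, and leaving out 1 sample raised the adjusted p above the threshold in 4 of 6 cases (0.0510 to 0.0782), as did median-of-ratios scaling (0.0891). FAK KO over KMF gave -0.20 (limma adjusted p = 0.129), and without KMF replicate 3 the difference was -0.32 and was called (limma adjusted p = 0.00467). It was also called once chromosomes were centred (described below for Cdh2), at -0.30 by the planned way and -0.35 by the one added later (limma adjusted p = 0.0414 and 0.0278). In order of level the lines were FAK-R454, KMF, FAK-WT, FAK KO and β-catenin ΔGSK, and only the last gap between neighbours passed the test. Within samples, the ratio of Ctnnb1 to Jup was 1.79 to 2.15 in β-catenin ΔGSK, 1.15 to 1.56 in KMF, 0.992 to 1.18 in FAK KO, 0.857 to 0.898 in FAK-WT and 0.701 to 0.763 in FAK-R454. That ratio did not overlap between β-catenin ΔGSK and any other line.

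Ctnna1 (ENSMUSG00000037815, chr18:35118888-35254773, plus strand) encodes αE-catenin, the actin-binding subunit. It was the flattest of the 3 abundant catenins. It averaged 126 ± 3.96 FPKM in KMF (SD, n = 3), 129 ± 3.16 in FAK KO (n = 3), 114 ± 0.471 in FAK-WT (n = 3), 122 ± 0.323 in FAK-R454 (n = 2) and 110 ± 0.874 in β-catenin ΔGSK (n = 3). It was lower in β-catenin ΔGSK than in FAK KO (-0.23 ± 0.05, limma adjusted p = 0.00713) and also lower in the FAK-WT line than in FAK KO (-0.17 ± 0.06, limma adjusted p = 0.0353). Under median-of-ratios scaling the first had a limma adjusted p of 0.0530 and the second 0.162, and the second call was also lost without a trend (0.0565) and without FAK KO replicate 1 or 3 or FAK-WT replicate 1 or 2 (0.0622 to 0.143). It did not differ beyond the spread between FAK KO and KMF (0.04, 95% interval -0.10 to 0.17). Once chromosomes were centred (described below for Cdh2), Ctnna1 was called lower in FAK KO than in KMF, at -0.41 by the planned way. No gap between neighbours in the order of its levels passed the test.

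Ctnnd1 (ENSMUSG00000034101, chr2:84600071-84650765, minus strand) encodes p120-catenin. Its 14 samples lay between 5.55 and 7.13 FPKM, and the line means ran from 5.88 ± 0.0835 in KMF (SD, n = 3) to 6.68 ± 0.303 in FAK KO (n = 3). None of the 10 pairs of lines passed the limma test, the smallest adjusted p being 0.0607 for FAK-R454 over KMF, although 2 of the 10 had an unadjusted p under 0.05 and limma-voom on the fragments called 2. FAK KO was above KMF in all samples (0.18, 95% interval 0.01 to 0.35, limma adjusted p = 0.0661, limma-voom adjusted p = 0.0460). The level itself is uncertain. In GENCODE M21, 61.2% of the exon bases of Ctnnd1 are also exon bases of a read-through gene on the same strand, named CTNND1 in the table and listed at 0 in all 14 samples, and fragments that fit both may not have been counted.

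Cdh2 (ENSMUSG00000024304, chr18:16588877-16809246, minus strand) encodes N-cadherin. It stood at 15.8, 15.5 and 14.6 FPKM in KMF and at 27.1, 24.7 and 26.2 in FAK KO. FAK-WT samples were at 14.2, 14.2 and 14.9. FAK-R454 samples were at 24.6 and 24.3, and β-catenin ΔGSK samples at 23.6, 22.7 and 24.2. KMF and FAK-WT were low and overlapped each other, and each sample of the other 3 lines was above all of their samples.

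The rise of Cdh2 in FAK KO over KMF was 0.76 ± 0.07 (limma adjusted p = 3.48e-05). FAK-WT was lower than FAK KO by 0.84 on the log2 scale (SE 0.06, limma adjusted p = 8.43e-05) and did not differ from KMF beyond the spread (-0.08, 95% interval -0.21 to 0.05). These are RNA levels. By mass spectrometry the study reported more N-cadherin and β-catenin protein in FAK-WT than in FAK KO, and than in FAK-R454. FAK-R454, with the inactive kinase, stayed near FAK KO (-0.09, 95% interval -0.24 to 0.07). The difference between FAK-WT and FAK-R454 was itself called (-0.76 ± 0.05, limma adjusted p = 0.00288), although with either FAK-R454 sample left out its adjusted p was 0.0855 or 0.0891. In β-catenin ΔGSK each sample lay below each FAK KO sample by a small amount (-0.15, 95% interval -0.30 to 0.01, limma adjusted p = 0.0891), and 1 fit of all 5 lines called this difference (limma adjusted p = 0.0330). From high to low the lines were FAK KO, FAK-R454, β-catenin ΔGSK, KMF and FAK-WT, and the gap between β-catenin ΔGSK and KMF was the single one between neighbours to pass the test (0.61, limma adjusted p = 7.26e-05).

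**Figure D2:**
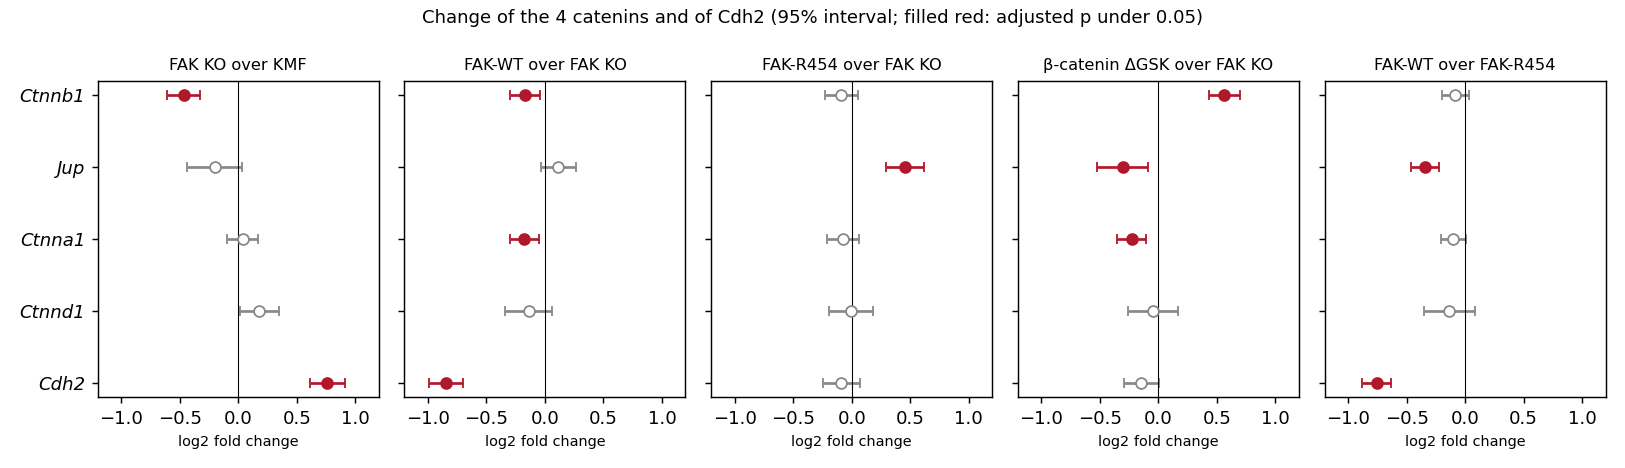
Log2 fold change of the 4 catenins and of Cdh2 (horizontal axis, on the log2(FPKM + 0.1) scale) in the 5 main comparisons, with 95% intervals, where filled red points passed limma at an adjusted p under 0.05. Ctnnb1 and Cdh2 move in opposite directions in FAK KO over KMF (-0.47 and 0.76), and no point reaches 1 in size.

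Counts of the 5 tested genes stand as follows beside all genes tested. In FAK KO over KMF, 2 of the 5 were called, where 51.8% of 11893 genes were. In FAK-WT over FAK KO, 3 of 5 were called, against 40.8% of 11841. FAK-R454 over FAK KO gave 1 of 5, against 19.7% of 11818, and β-catenin ΔGSK over FAK KO gave 3 of 5, against 58.1% of 11915. FAK-WT over FAK-R454 gave 2 of 5, against 7.82% of 11782. In the 5 other pairs of lines, used here for the order of levels, 41.6% (FAK-WT over KMF), 43.6% (FAK-R454 over KMF), 56.9% (β-catenin ΔGSK over KMF), 50.8% (β-catenin ΔGSK over FAK-WT) and 49% (β-catenin ΔGSK over FAK-R454) of all genes tested were called. With 5 genes these shares carry little information beyond the single genes. None of the 5 was called by limma with a change of at least 2-fold in any of these comparisons, where 8.01%, 4.62%, 2.74%, 12.1% and 1.44% of genes were. At an unadjusted p under 0.05 the same comparisons gave 3, 3, 1, 3 and 2 of the 5 genes, and limma-voom on fragments also found 0 at 2-fold.

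Cdh2 and Ctnna1 both lie on chromosome 18, whose median change differed from that of the other chromosomes in these comparisons. In FAK KO over KMF the median log2 fold change of the 296 tested genes of chromosome 18 was 0.38 (quartiles 0.10 and 0.61), against 0.04 for the other chromosomes, and 79.7% of them lay above that 0.04. For FAK-WT over FAK KO it was -0.36 against -0.07, for FAK-R454 over FAK KO -0.14 against -0.03, for β-catenin ΔGSK over FAK KO -0.38 against -0.08, and for FAK-WT over FAK-R454 -0.22 against -0.04. The fold changes of Cdh2 thus had the sign of their chromosome's median in all 5 comparisons. Chromosome 18 was not alone in this. Chromosome 6 was at 0.34 against 0.03 in FAK KO over KMF, and chromosome 15 at 0.30 against -0.09 in FAK-WT over FAK KO. Chromosome 9, which holds Ctnnb1, was at -0.13 against 0.06 in FAK KO over KMF, the sign of the change of Ctnnb1, which was -0.34 after the centring described next (limma adjusted p = 0.00132). After each chromosome was centred on the median deviation of its genes, a setting added after the data were seen, the difference in Cdh2 was 0.38 for FAK KO over KMF (limma adjusted p = 0.00162), -0.47 for FAK-WT over FAK KO (limma adjusted p = 8.78e-04) and -0.53 for FAK-WT over FAK-R454 (limma adjusted p = 0.00662). These 3 kept their direction and their call at a smaller size. The small difference of β-catenin ΔGSK over FAK KO turned from -0.15 to 0.24 (limma adjusted p = 0.0128). Ctnna1 changed by less than the median of its chromosome in all 5 comparisons, so centring turned its sign in each. The centred values were -0.34, 0.19, 0.06, 0.16 and 0.12 in the order above, and the first of them was called. The direction given for Ctnna1 thus depends on whether the shift of its chromosome is taken out.

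**Figure D3:**
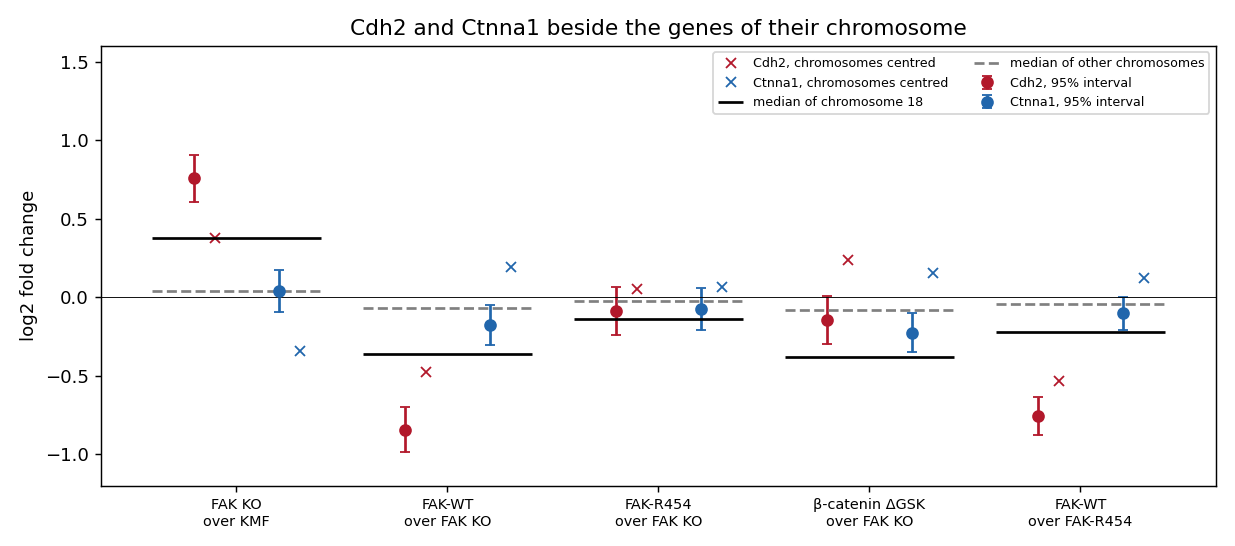
Log2 fold change (vertical axis) of Cdh2 (red) and Ctnna1 (blue) in the 5 main comparisons with 95% intervals, beside the median of the tested genes of chromosome 18 (black line) and of the other chromosomes (dashed grey line). Crosses give both genes after chromosomes were centred: Cdh2 keeps 0.38, -0.47 and -0.53 in the comparisons where it was called, and Ctnna1 changes sign in all 5.

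The epithelial cadherins stayed under 1 FPKM in all samples. Cdh1 (ENSMUSG00000000303, chr8:106603351-106670246, plus strand) gave 96, 102 and 111 fragments in the KMF samples, 10, 19 and 7 in FAK KO, 5, 3 and 1 in FAK-WT, 3 and 3 in FAK-R454, and 6, 3 and 6 in β-catenin ΔGSK. KMF stood apart from all other lines. In fragments for each 1000000 on genes, Cdh1 had 3.35 in KMF (exact Poisson 95% interval 2.99 to 3.74, counting error only), 0.428 in FAK KO (0.300 to 0.592) and 0.102 in FAK-WT (0.0467 to 0.194). In FPKM this was 0.760 ± 0.0587 in KMF and 0.0986 ± 0.0578 in FAK KO (SD, n = 3 each), so Cdh2 exceeded Cdh1 by 18.9 to 21.2 times within the KMF samples.

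Cdh3 (ENSMUSG00000061048, chr8:106510913-106556908, plus strand), which lies 46442 bases from Cdh1, followed it in the parental line and not in the re-expression lines. It gave 88, 60 and 80 fragments in KMF and 6, 1 and 6 in FAK KO. In FAK-WT it gave 18, 22 and 14, in FAK-R454 28 and 25, and in β-catenin ΔGSK 1, 2 and 3. Each FAK-WT and FAK-R454 sample was thus above each FAK KO sample and below each KMF sample.

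Neither gene passed the filter of 1 FPKM, so the tests that follow come from the fit without a filter and understate the changes of such low genes. In FAK KO over KMF the differences were -2.15 for Cdh1 (limma adjusted p = 9.20e-04) and -2.40 for Cdh3 (limma adjusted p = 3.98e-04). Cdh3 was higher than in FAK KO by 0.90 in FAK-WT (limma adjusted p = 0.0295) and by 1.25 in FAK-R454 (limma adjusted p = 0.0331). Over the alternative settings the first ran from 0.16 to 1.94. The second, which rests on 2 FAK-R454 samples, ran from 0.24 to 2.47. FAK-WT and FAK-R454 did not differ beyond the spread (-0.36, limma adjusted p = 0.505). Cdh1 did not pass in FAK-WT over FAK KO (-0.66, limma adjusted p = 0.0876). At this level a few cells with much RNA and many cells with little cannot be told apart, nor for any bulk value here can fewer expressing cells and less RNA per cell. Among the 45 other genes above 1 FPKM within 1 Mb of this pair, a set chosen after the values were seen, the log2 differences of FAK KO from KMF ran from -1.12 to 1.16 with a median of -0.20.

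**Figure D4:**
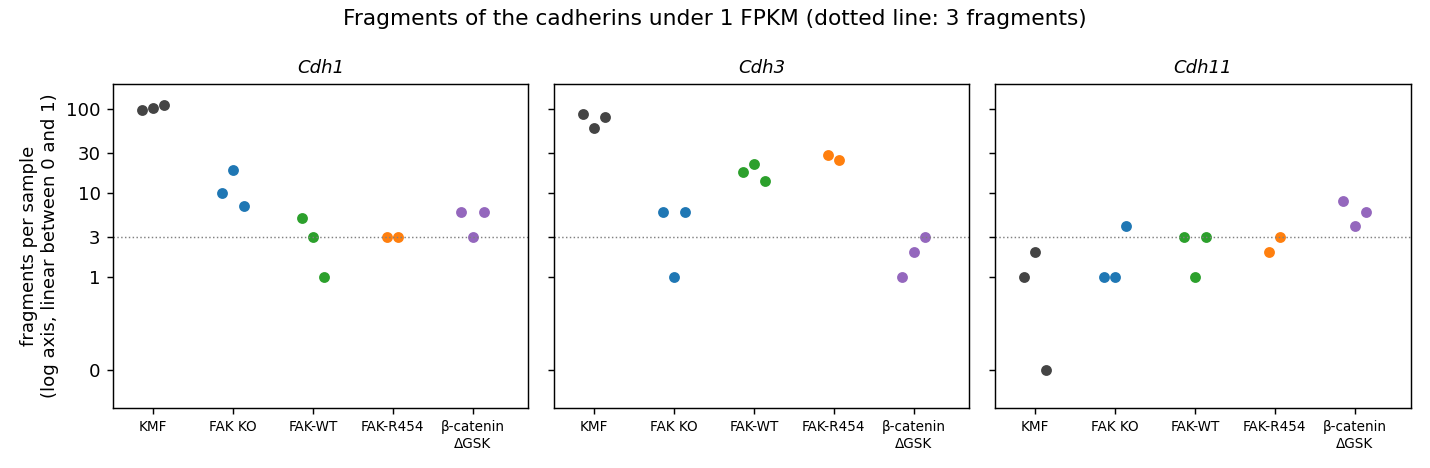
Fragments per sample (log axis, linear between 0 and 1) of Cdh1, Cdh3 and Cdh11 in the 5 lines, with a dotted line at 3 fragments. Cdh1 and Cdh3 reach 60 to 111 fragments in KMF, Cdh3 holds 14 to 28 in FAK-WT and FAK-R454, and Cdh11 stays at 8 or fewer in all 14 samples.

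The type II cadherins Cdh6 (ENSMUSG00000039385, chr15:13034200-13173639, minus strand) and Cdh11 (ENSMUSG00000031673, chr8:102632995-102785111, minus strand), the latter typical of mesenchymal cells, and the membrane-anchored Cdh13 or T-cadherin (ENSMUSG00000031841, chr8:118283733-119324921, plus strand) had few or no fragments. Cdh6 had 0 fragments in all 14 samples, which allows a level of up to 0.0323 to 0.0449 FPKM per sample (3 fragments). Cdh13 had 3 fragments in 1 KMF sample and 0 in the other 13. Cdh11 had 0 to 8 fragments per sample. β-Catenin ΔGSK had 8, 4 and 6, FAK KO 1, 1 and 4, and KMF 1, 2 and 0. In the fit without a filter β-catenin ΔGSK differed from KMF (0.48, limma adjusted p = 0.0278) and the difference from FAK KO was 0.37 (limma adjusted p = 0.101), both at counts near the limit of 3 fragments.

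Other genes of the same system were read from 7 lists. They were chosen, as were the members, with earlier results of these data known, and their counts and medians are descriptions. The counts of each list stand beside these shares of all genes tested that limma called. They were 51.8% in FAK KO over KMF, 40.8% in FAK-WT over FAK KO and 19.7% in FAK-R454 over FAK KO. In β-catenin ΔGSK over FAK KO the share was 58.1%, and in FAK-WT over FAK-R454 it was 7.82%. With 1 sample left out, an alternative chosen after seeing the data, at least 1 fit lost the limma call of 5 of the 29 list genes called in FAK KO over KMF, 11 of 19 in FAK-WT over FAK KO, 10 of 13 in FAK-R454 over FAK KO, 6 of 30 in β-catenin ΔGSK over FAK KO and all 9 in FAK-WT over FAK-R454. Some called list genes passed the filter of 1 FPKM through the higher of the 2 lines alone, which favours a difference. They were 5, 3, 0, 5 and 3 in the same order, among them Cdh10, Pcdh17, Pcdh18, Axin2 and Clstn3, and without a filter limma still called 5, 3, 0, 5 and 2. Among 16 other classical and type II cadherins, 2 passed 1 FPKM in a line, Cdh10 and Cdh24, and Cdh24 was called in 1 of the 5 main comparisons, higher in FAK-R454 than in FAK KO (0.55). With FAK-R454 replicate 1 or 2 left out, Cdh24 differed by 0.51 or 0.58 and lost that call. It was also higher in FAK-R454 than in KMF (0.60) and than in β-catenin ΔGSK (-0.70 for β-catenin ΔGSK over FAK-R454). Cdh10, a type II cadherin typical of neural tissue and located on chromosome 15, rose from 0.0745 ± 0.0257 FPKM in KMF to 1.18 ± 0.0553 in FAK KO (SD, n = 3 each). The difference was 2.89 ± 0.25 (SE) on the log2(FPKM + 0.1) scale, which understates it since the KMF level is below the pseudocount, and the log2 ratio of the 2 means was 3.99. It was at 0.510 ± 0.148 in FAK-WT (n = 3), 2.24 ± 0.119 in FAK-R454 (n = 2) and 0.548 ± 0.123 in β-catenin ΔGSK (n = 3). Like Cdh2, it was thus higher in FAK KO than in KMF and lower in the FAK-WT line than in FAK KO (-1.10). In both comparisons it passed the filter through FAK KO alone, where it was high, and without a filter the limma adjusted p was 1.02e-04 and 0.0196. Unlike Cdh2 it was higher in FAK-R454 than in FAK KO (0.87, limma adjusted p = 0.00597, and 0.0608 to 0.0922 with 1 FAK-R454 sample left out). Of 6 other catenins and p120 relatives, 3 were tested. Limma called 0 of them in FAK KO over KMF, FAK-WT over FAK KO and FAK-R454 over FAK KO (1, 1 and 0 at an unadjusted p under 0.05, and 1, 0 and 0 by limma-voom), with medians of 0.10, -0.18 and 0.03 against 0.05, -0.08 and -0.03 over all genes tested. In β-catenin ΔGSK over FAK KO all 3 were called, with Pkp4 higher (1.17) and Ctnnal1 and Arvcf lower (-0.68 and -0.52). In FAK-WT over FAK-R454, Arvcf was lower (-0.36).

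Of 15 adherens junction partners, 13 were tested. In FAK KO over KMF, 5 were lower and 1 higher (median -0.15, against 0.05 over all genes tested), among them the actin crosslinker Actn1 (-0.86), the p120 partner Plekha7 (-0.86), the adhesion receptor Nectin1 (-0.61) and afadin, Afdn (-0.44). These 6 calls of 13 stood beside 51.8% of all genes tested. In β-catenin ΔGSK over FAK KO, 5 were higher and 3 lower (median 0.12 against -0.09), that is, 8 calls of 13 beside 58.1% of all genes tested. Plekha7 rose from 2.44 ± 0.229 FPKM to 15.1 ± 1.79 (SD, n = 3 each; 2.58, limma adjusted p = 3.87e-07) and Nectin1 fell from 28.3 ± 2.54 to 9.29 ± 1.14 (-1.60, limma adjusted p = 4.58e-06). The most abundant of the list, the actin crosslinker Actn4, was lower in β-catenin ΔGSK (204 FPKM) than in FAK KO (239 FPKM; -0.23, limma adjusted p = 0.0156, and 0.0543 without FAK KO replicate 3). FAK-WT over FAK KO gave 2 higher (median 0.07 against -0.08), FAK-R454 over FAK KO 2 higher and 1 lower (0.07 against -0.03), and FAK-WT over FAK-R454 1 higher and 2 lower (0.01 against -0.05).

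Of 12 desmosome genes, the junctions in which plakoglobin is the linker, 6 were tested in FAK KO over KMF and 2 were higher and 3 lower (median -0.39 against 0.05). The desmosomal cadherin Dsg2, which lies on chromosome 18 like Cdh2, rose by 1.15, while the plakin Dsp and the plaque protein Pkp1 fell by 1.38 and 1.19 (limma adjusted p = 6.89e-05, 1.57e-05 and 5.73e-06). Of the 5 tested for FAK-WT over FAK KO, 2 were higher and 3 lower (median -0.28 against -0.08), with Dsg2 at -0.99. Pkp1 was at 14.3 to 16.2 FPKM in FAK KO and at 19.3 to 37.9 in FAK-WT (0.71), and without FAK-WT replicate 3, the sample that stood apart in its line, the difference was 0.42 (limma adjusted p = 0.00784), while the call was lost without any 1 FAK KO sample (0.0642 to 0.0895). FAK-R454 over FAK KO gave 1 higher and 2 lower of 5 (-0.32 against -0.03), and FAK-WT over FAK-R454 1 higher of 5 (-0.22 against -0.05). In β-catenin ΔGSK over FAK KO, 2 were higher and 2 lower of 5 (median -0.12 against -0.09), and Pkp1 fell from 15.3 ± 0.988 FPKM to 0.976 ± 0.242 (SD, n = 3 each; -3.87, limma adjusted p = 3.21e-07). Pkp1 passed the filter in that comparison through FAK KO alone, and without a filter the limma adjusted p was 9.07e-06. Perp, the most abundant of the list, fell there from 121 to 73.4 FPKM (-0.72).

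Of 10 genes of the β-catenin destruction complex, 9 were tested in FAK KO over KMF, with 4 higher and 2 lower (median 0.11 against 0.05). The highest of these was Csnk1a1 (0.68), the casein kinase that primes the stretch printed above, which is on chromosome 18, followed by the ubiquitin ligase subunit Btrc (0.58). Axin2, a scaffold of the complex and itself a Wnt target gene, moved most. It was at 5.88 ± 0.301 FPKM in KMF, 0.822 ± 0.0146 in FAK KO and 2.05 ± 0.0355 in FAK-WT (SD, n = 3 each), at 0.773 ± 0.0176 in FAK-R454 (n = 2) and at 110 ± 6.69 in β-catenin ΔGSK (n = 3). Its changes were -2.70 in FAK KO over KMF, 1.22 in FAK-WT over FAK KO, 6.89 in β-catenin ΔGSK over FAK KO and 1.30 in FAK-WT over FAK-R454 (limma adjusted p = 4.87e-07, 4.37e-04, 1.01e-10 and 0.00584). Ctnnb1 had no such rise in FAK-WT over FAK KO (-0.17). In each of these comparisons of Axin2 the filter of 1 FPKM was passed through the higher line alone. Without a filter the limma adjusted p of Axin2 was 1.47e-05, 0.00223, 1.52e-08 and 0.0166 in the same order. Axin2 included, the list gave 2 higher and 4 lower of 9 in FAK-WT over FAK KO, 0 of 8 by limma in FAK-R454 over FAK KO (4 at an unadjusted p under 0.05, 1 by limma-voom), 2 higher and 1 lower of 9 in β-catenin ΔGSK over FAK KO, and 1 higher of 9 in FAK-WT over FAK-R454. The medians in these 4 comparisons were -0.16, -0.05, 0.04 and -0.13, against -0.08, -0.03, -0.09 and -0.05 over all genes tested.

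Of 8 genes of cadherin cleavage and turnover, all were tested and 1 was higher and 3 lower in FAK KO over KMF (median -0.08 against 0.05), with Adam10, the protease that sheds cadherin ectodomains, at 0.31 and the γ-secretase subunit Ncstn at -0.44. Adam10 was below its FAK KO level in FAK-WT (-0.36, limma adjusted p = 0.0373) and in β-catenin ΔGSK (-0.56, limma adjusted p = 0.0161). These 3 calls of Adam10 were lost in some fits with 1 sample left out, and without FAK KO replicate 1 the values were 0.19, -0.24 and -0.44 (limma adjusted p = 0.0879, 0.0982 and 0.0575). The other comparisons gave 0 higher and 2 lower in FAK-WT over FAK KO, 1 higher in FAK-R454 over FAK KO, 2 higher and 1 lower in β-catenin ΔGSK over FAK KO, and 1 lower in FAK-WT over FAK-R454, with medians of -0.12, -0.02, -0.06 and -0.14.

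Of 20 atypical cadherins and protocadherins, 19 were in the table and 9 were tested in FAK KO over KMF, with 3 higher and 4 lower (median -0.07 against 0.05). Clstn3, a calsyntenin, rose from 1.35 to 3.18 FPKM (1.17) and was lower than in FAK KO in FAK-WT, at 0.747 FPKM (-1.95), and in FAK-R454, at 1.50 FPKM (-1.02, limma adjusted p = 1.15e-04, 8.83e-05 and 0.00176). Clstn1, the most abundant of the list, was at 49.7 FPKM in FAK KO and was lower there than in KMF (-0.50, limma adjusted p = 4.94e-04). The protocadherin Pcdh17 was at 0.259 FPKM in KMF and 1.04 in FAK KO (1.67), so it passed the filter narrowly and through FAK KO alone, and without a filter the limma adjusted p was 8.64e-04. In β-catenin ΔGSK over FAK KO, 2 of 9 were higher and 6 lower (median -0.57 against -0.09), with Pcdh1, on chromosome 18, at -2.09, Pcdh19 at -1.73 and Pcdh18 at 1.34 (limma adjusted p = 9.14e-07, 4.02e-06 and 9.02e-05). Pcdh18 passed the filter there through β-catenin ΔGSK alone, and without a filter the limma adjusted p was 6.61e-04. FAK-WT over FAK KO gave 1 higher and 2 lower of 8 (median 0.08), FAK-R454 over FAK KO 3 higher and 1 lower of 9 (0.30), and FAK-WT over FAK-R454 1 lower of 9 (-0.21).

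**Figure D5:**
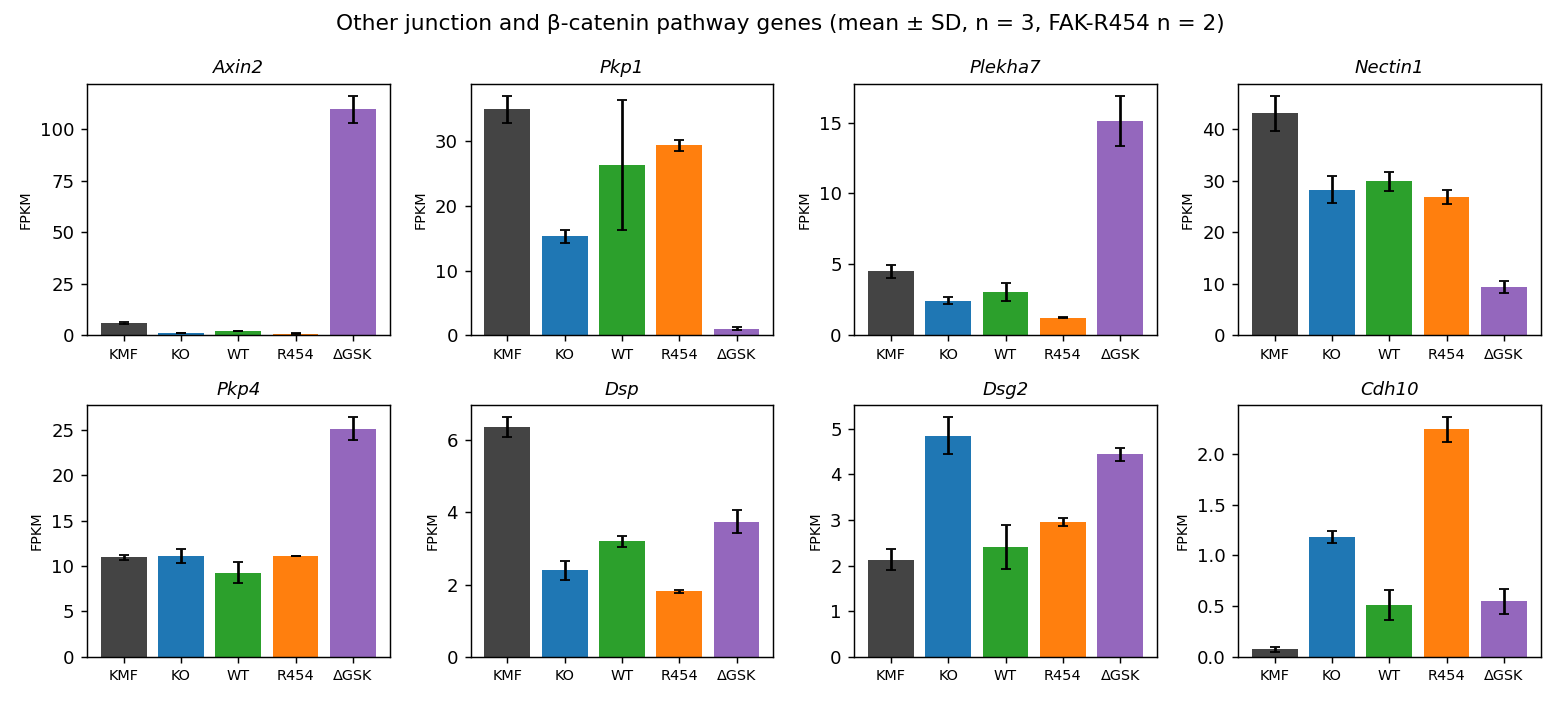
Mean level (FPKM, linear axis from 0, bars) with SD (whiskers) of 8 other junction and β-catenin pathway genes in the 5 lines (on the axis, line names are given without FAK or β-catenin). Axin2 reaches 110 FPKM in β-catenin ΔGSK against 5.88 or less in the other lines, and Pkp1 falls to 0.976 there.

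For the 3 members with the widest range between line means among those above 1 FPKM in a line, the genes with the most similar pattern were sought by Pearson's r of log2(FPKM + 0.1) over the 14 samples among 12256 genes. These values are descriptions, since the samples of a line share their cells and the pattern is that of 5 lines. Cdh2 was most like Tmeff1 (r = 0.98), Arhgap26 (0.95, also on chromosome 18) and Synrg (0.95). Jup was most like the matrix metalloproteinase gene Mmp14 (0.95), Gps2 (0.94) and Plekhg5 (0.93). Ctnnb1 was most like Il22ra1 (0.97), Aldh1b1 (0.97) and Creg1 (0.97). Mean Aldh1b1, for example, was 7.29 FPKM in β-catenin ΔGSK and 4.47 in KMF, and it was 1.82, 1.13 and 0.933 in the FAK KO, FAK-WT and FAK-R454 lines.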

How the data were processed

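The authors isolated RNA from tumorspheres, made poly(A)-selected libraries with the NEBNext Ultra kit and deposited 1 table of FPKM per gene for 14 samples. The submitters' processing notes name mm10, CASAVA 1.8, STAR 2.5 and DESeq2, whereas the study's methods name TopHat2. Of the gene models shared with GENCODE M21, 72.3% had the same coordinates. FPKM times the deposited gene length, divided by its smallest step in a sample, gave whole fragments for 100% of values (tolerance 0.01), which supplied the depths, 25390558 to 35289859 fragments a sample.

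Values were analysed as log2(FPKM + 0.1) with limma 3.58.1 (trend, R 4.3.3), 2 lines at a time, over genes above a mean of 1 FPKM in either line, with Benjamini-Hochberg adjustment. Calls at 2-fold also needed a log2 fold change of at least 1 in size and a mean above 1 FPKM in the higher line. The procedure was tested on simulated data with independent normal noise for each gene. These held no outlying samples and no chromosome shifts, so the test does not cover those features of the data. Alternatives changed the pseudocount (0.01, 1), the filter (none, 5 FPKM), scaling, trend, the samples fitted, a replicate block, chromosome centring and limma-voom on fragments, and left out each sample. Similar patterns were sought for the 3 members with the widest range between line means among those above 1 FPKM in a line, and list genes were named as the largest changes at 2-fold (up to 4 a list and comparison) and the most abundant of each list. Actn1, Afdn, Btrc, Arvcf and Ncstn were added after their values were seen. Members and lists were chosen with earlier results of these data known. Any further FAK-R454 sample was not analysed here. Nectin1 and Afdn are listed under older names, and Dchs2 was not matched. The intervals cover counting error only where stated.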

Additional observations from a re-analysis of the deposited data

Results flagged for a closer look

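The change that followed re-expression of FAK in FAK KO cells differed between the wildtype and the inactive kinase for 2 of the 5 tested cadherin and catenin genes and for 3 list genes named above, by the limma test of FAK-WT over FAK-R454 (n = 3 and 2), where 7.82% of 11782 genes were called. The 3 list genes were picked because they were called there at 2-fold, where 1.44% of all genes tested were. At any fold, 9 list genes were called there. Of the 3, Cdh10 and Axin2 passed the filter in this comparison through the higher line alone. Without a filter their limma adjusted p was 0.0311 and 0.0166. Both member calls were lost when either FAK-R454 sample was left out (limma adjusted p = 0.0855 to 0.0891 for Cdh2 and 0.166 to 0.213 for Jup). The Jup call was also lost without FAK-WT replicate 1 or 2 (0.0580 and 0.0977) and in 1 fit of all 5 lines (limma adjusted p = 0.0799). The difference was -0.76 for Cdh2, which fell in FAK-WT relative to FAK KO and lay close to it in FAK-R454, and -0.34 for Jup, which was higher than in FAK KO in FAK-R454. It was -1.97 for Cdh10, 1.22 for Plekha7 and 1.30 for Axin2, and these calls too were lost without either FAK-R454 sample (limma adjusted p = 0.168 to 0.171, 0.183 to 0.204 and 0.0946 to 0.0967). The Plekha7 call was also lost without FAK-WT replicate 1 or 2 (limma adjusted p = 0.0536 and 0.0865). With 2 or 3 samples a line, no outlier test of single genes was made within a line. Over all genes, KMF replicate 3 and FAK-WT replicate 3 stood apart most clearly from the other samples of their lines, as given above. β-Catenin ΔGSK replicate 1 and FAK KO replicate 1 did so less clearly.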

How the results depend on the processing

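The differences of Ctnnb1 in FAK KO over KMF (-0.51 to -0.34) and in β-catenin ΔGSK over FAK KO (0.53 to 0.65) and of Cdh2 in FAK KO over KMF (0.31 to 0.80) and in FAK-WT over FAK KO (-0.88 to -0.47) kept their direction and their call under each of 17 alternatives. Of 544 values of members under alternatives, 457 kept direction and call, or moved by less than the spread of the replicates, and 29 reversed. The number of members called stayed within 1.5 times of the value given, and was 0 at 2-fold, except as follows, and the cause was not tested. In FAK KO over KMF it was 4 in place of 2 without a filter, which also tests Cdh1 and Cdh3, and 4 under both kinds of chromosome centring. In FAK-WT over FAK KO it was 1 in place of 3 under median-of-ratios scaling, without a trend and under the planned centring on chromosome levels, and 1 to 3 with 1 sample left out. In FAK-R454 over FAK KO it was 2 without a filter, which adds Cdh3, and 0 to 1 with 1 sample left out. In β-catenin ΔGSK over FAK KO it was 1 in place of 3 under median-of-ratios scaling. In FAK-WT over FAK-R454 it was 1 in 1 fit of all 5 lines and 0 to 2 with 1 sample left out.

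The planned centring on chromosome levels reversed Ctnna1 (-0.41 in FAK KO over KMF, 0.14 in FAK-WT over FAK KO, 0.030 in FAK-R454 over FAK KO, 0.26 in β-catenin ΔGSK over FAK KO and 0.13 in FAK-WT over FAK-R454). It reversed Ctnnd1 in the middle 3 of these (0.030, 0.088 and 0.016), Cdh2 in FAK-R454 and β-catenin ΔGSK over FAK KO (0.016 and 0.34) and Ctnnb1 in FAK-WT over FAK-R454 (0.035). The centring on gene deviations, added after the data were seen because the first shifted chromosomes by more than their median change, gave -0.34, 0.19, 0.064, 0.16 and 0.12 for Ctnna1, 0.038 and 0.11 for Ctnnd1 in FAK-WT and FAK-R454 over FAK KO, 0.051 and 0.24 for Cdh2 and 0.012 for Ctnnb1 in the comparisons named. Median-of-ratios scaling gave -0.0029 for Ctnna1 in FAK KO over KMF, and 0.020 and 0.033 for Ctnnd1 in FAK-R454 and β-catenin ΔGSK over FAK KO. With 1 sample left out, Ctnnd1 ranged from -0.038 to 0.026 in FAK-R454 over FAK KO (positive without FAK KO replicate 2 or 3 or FAK-R454 replicate 1) and from -0.119 to 0.012 in β-catenin ΔGSK over FAK KO (positive without β-catenin ΔGSK replicate 1). The changes of Cdh1 and Cdh3 in FAK KO over KMF depend on the pseudocount (-0.68 to -2.95 and -0.64 to -3.89), and their depth, 1 to 111 fragments a sample, limits them.

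Same-numbered samples did not deviate together in all pairs (correlations from -0.27 to 0.48), and they were treated as sharing only a number. The correlations for β-catenin ΔGSK over FAK KO were all positive, at 0.48, 0.32 and 0.097. A replicate block left 1 in place of 3 calls in FAK-WT over FAK KO, gave 0.0014 for Ctnnd1 in FAK-R454 over FAK KO and called Cdh2 in β-catenin ΔGSK over FAK KO (limma adjusted p = 0.0376), and changed no other call of a member.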
